A study of Homo sapiens with 6 samples.

Results

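Ubiquitin E2 enzymes, cullin-RING ligase parts and NEDD4-family ligases were examined in CAL-27, an established cell line from a human tongue squamous cell carcinoma, after knockdown of XBP-1s. The set holds 54 genes, which are the activating enzyme UBA1, 31 E2 enzymes and E2 variants, 15 cullins and other cullin-RING parts, and 7 ligases of the NEDD4 family. Members were chosen by gene symbol and function, with earlier results of these data known, and were found through the RefSeq accession of each probe. They were read by 70 of the 34127 probes of the array, and 19740 genes in all had a named probe. All 70 member probes were well above background on all 6 arrays, and all were tested.

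RNA of cells stably transduced with an shRNA against XBP-1s, the spliced and active form of the transcription factor XBP1 (shXBP-1s, n = 3), was compared with RNA of cells carrying the control shRNA (shCtrl, n = 3), 1 array per sample. Both groups are one cell line, no second shRNA was measured here, and the labels do not say whether the replicates were separate cultures, so p-values measure only the spread between these samples, which may be technical. Values are the log2 signal of a probe less the log2 of its array's 75th percentile, and every difference is shXBP-1s minus shCtrl on that log2 scale. A probe passed the test at an adjusted p below 0.05 (limma, Benjamini-Hochberg over 27624 probes), and was called when it also differed at least 2-fold. In bulk RNA, fewer cells of a type and less RNA per cell cannot be told apart.

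Ubiquitin is activated by an E1 enzyme, handed to an E2, and attached to a target protein with the help of an E3 ligase. Cullin-RING ligases are assembled E3s in which a cullin holds a RING subunit at one end and, through adaptors, a substrate receptor at the other, and they work when the cullin carries the ubiquitin-like protein NEDD8. Ligases of the NEDD4 family take the ubiquitin onto themselves through a HECT domain before passing it on, and bind proline-rich motifs of their targets, many of them membrane proteins, through WW domains. Some E2s, including UBE2J1 and UBE2G2, serve the removal of misfolded proteins from the endoplasmic reticulum, a process that is linked to the unfolded protein response and to XBP-1s.

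The knockdown was seen in the XBP1 transcript, whose probe does not separate spliced from unspliced RNA. XBP1 (NM_005080) read 1.88, 1.85 and 1.87 in shCtrl and -0.50, -0.54 and -0.52 in shXBP-1s, a difference of -2.39 (SE 0.04, limma adjusted p 2.81e-07). All 8 squamous epithelial markers were above background on every array, and 6 of them passed the test as higher in shXBP-1s, from 0.71 for SFN to 4.28 for KRT6A. Their summed signal, in units of the array's 75th percentile, was 101 to 108 in shCtrl and 136 to 162 in shXBP-1s. The 13 probes of 8 leukocyte, endothelial and fibroblast markers summed to 1.86 to 1.93 and 1.57 to 1.62, with COL3A1 above background on no array. Of these 13 probes 4 passed the test, PDGFRB (-1.28) and COL1A1 (-0.63) as lower and CD68 (0.65) and 1 PTPRC probe (0.40) as higher in shXBP-1s. Whether these marker changes have a part in the member changes was not tested. By the scan identifier in the file headers, the 3 shXBP-1s arrays shared a scan with shCtrl replicate 1, while shCtrl replicates 2 and 3 shared another. Arrays of the same scan are called a slide here, which was not checked otherwise. Each result was also computed with slide as a block, which compares shXBP-1s with shCtrl replicate 1 alone.

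Of the 70 member probes, 39 passed the test (55.7%), beside 41.7% of all tested probes. Lower signals in shXBP-1s made up 24 of these (34.3%, beside 23.3% of all tested probes) and higher signals 15 (21.4%, beside 18.4%). Only 3 member probes were called, where 4.90% of all tested probes were, and these were all lower (4.29%, beside 2.61%), with none called higher, where 2.29% of all tested probes were. In 43 member probes the values of the groups did not overlap (61.4%, beside 52.4%). The median difference was -0.02 for the member probes and -0.02 for all tested probes. The median size of the difference, without its sign, was 0.27 for member probes and 0.23 for all tested probes.

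When each gene was represented by its brightest probe, 21 of the 54 genes were lower and 7 were higher, and 26 did not pass the test. Among 16821 genes represented in the same way 46.4% passed the test, with 27.5% lower and 18.9% higher. NEDD4L and UBE2R2 were the 2 genes called by this probe, both lower (3.7%), where 2.88% of the genes were called lower and 2.30% higher. The median difference was -0.12 for the members and -0.04 for these genes. By class, 12 of 31 E2 genes were lower and 4 higher, 5 of 15 cullin-RING genes were lower and 2 higher, and 4 of 7 NEDD4-family genes were lower and 1 higher. The class medians were -0.13, -0.03 and -0.55.

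**Figure D1:**
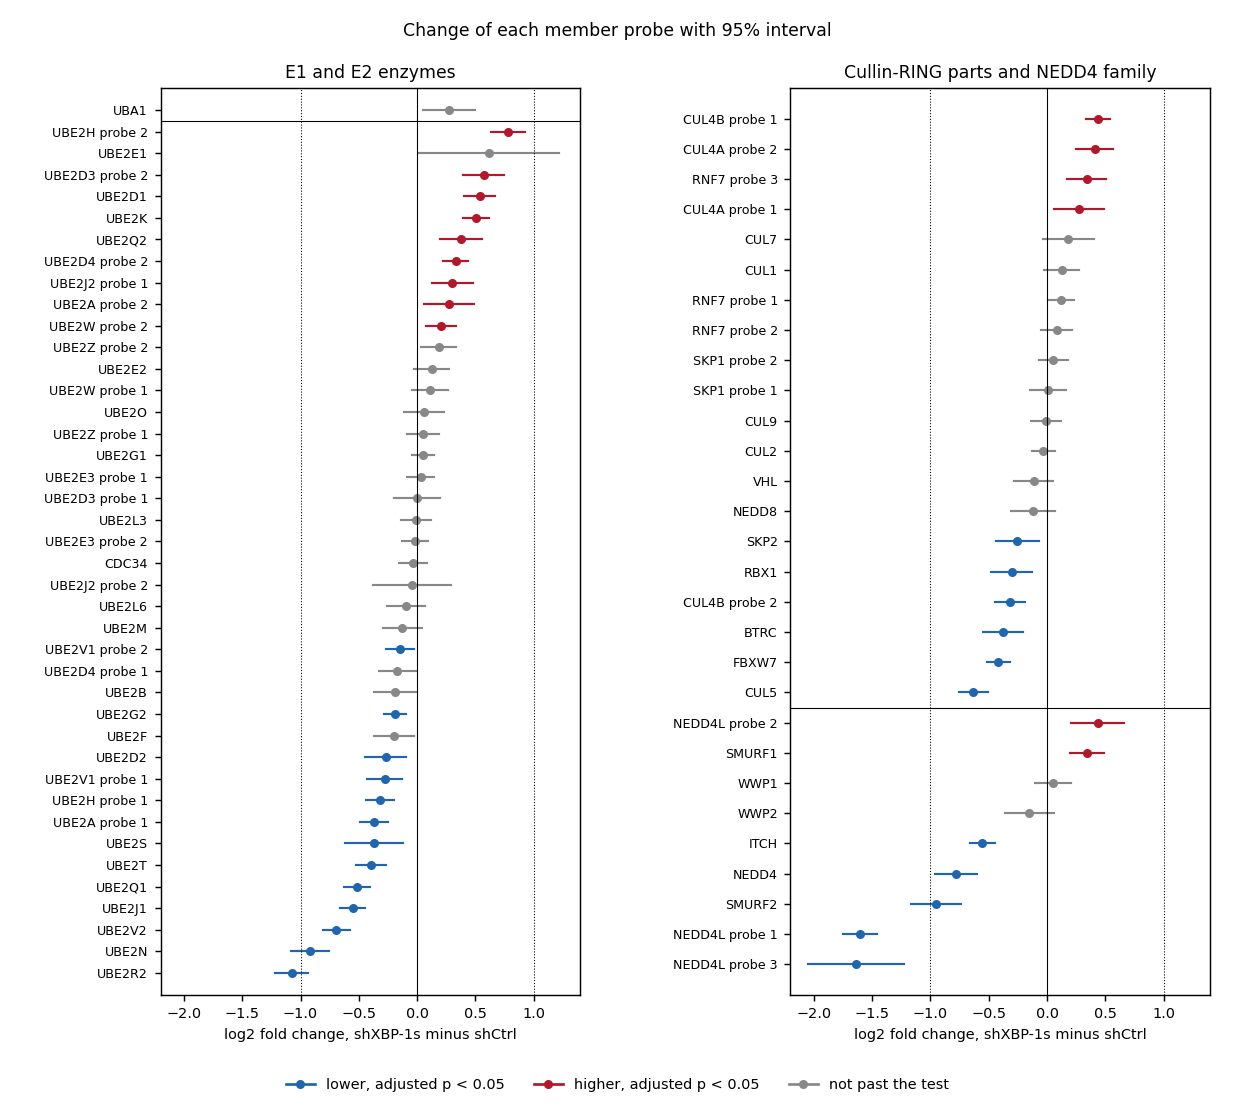
Difference between shXBP-1s and shCtrl (log2) for each of the 70 member probes, with 95% confidence intervals from limma, where probes of a gene are numbered from brightest to dimmest. Dotted lines mark 2-fold and horizontal lines separate UBA1 from the E2 enzymes and the cullin-RING parts from the NEDD4 family; the 3 probes wholly or mostly beyond the left dotted line belong to NEDD4L and UBE2R2.

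UBA1, the E1 that charges most E2s of the cell with ubiquitin, did not pass the test. Its difference was 0.28 (95% interval 0.05 to 0.50, limma adjusted p 0.052), its groups overlapped, and the value was 0.13 with slide as a block. UBA1 passed under some alternatives, among them quantile normalization (limma adjusted p 0.0374) and the deposited log2 values (limma adjusted p 0.0331). It did not pass in 4 of the 6 fits that left out 1 array.

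Among the E2 enzymes the largest difference was that of UBE2R2, a close relative of CDC34, the E2 that builds lysine 48-linked chains with cullin-RING ligases. UBE2R2 (NM_017811) read 1.94, 1.96 and 1.97 in shCtrl and 0.79, 0.86 and 1.01 in shXBP-1s. The lowest shCtrl array stood clearly above the highest shXBP-1s array. The fall was 2.11-fold (log2 -1.07, SE 0.06, limma adjusted p 8.08e-06). CDC34 (NM_004359) read -0.60, -0.53 and -0.48 in shCtrl and -0.55, -0.56 and -0.60 in shXBP-1s. These values overlapped, and the difference of -0.04 had a 95% interval of -0.16 to 0.08. Within each array, UBE2R2 minus CDC34 was lower in shXBP-1s by -1.04, with no overlap between the groups and an exact permutation p of 0.1 (two-sided, the smallest that 3 against 3 arrays allow). UBE2R2 was at -0.85 after normexp background correction, which is below 2-fold. The median of all tested probes was -0.41 in that fit, so normexp values here and below are relative to that shift.

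Promoter windows are printed for this pair because its members differed, with UBE2J1, an E2 of the endoplasmic reticulum that fell, beside them. Each line gives the 250 bases before the annotated start from RefSeq on GRCh38.p14, 5′ to 3′ on the strand of the gene. Capitals mark the letters ACGTG, the core of the unfolded protein response element, or the letters CCACG, the XBP1 side of the endoplasmic reticulum stress element, on either strand, and a capital run longer than 5 letters is an overlap of both.
UBE2R2, chr9:33816910-33817159, plus strand: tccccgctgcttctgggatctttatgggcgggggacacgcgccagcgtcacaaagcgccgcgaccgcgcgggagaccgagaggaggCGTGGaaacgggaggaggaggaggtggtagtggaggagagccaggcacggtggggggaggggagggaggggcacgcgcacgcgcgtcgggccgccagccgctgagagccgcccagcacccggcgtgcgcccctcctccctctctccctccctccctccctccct
CDC34, chr19:531510-531759, plus strand: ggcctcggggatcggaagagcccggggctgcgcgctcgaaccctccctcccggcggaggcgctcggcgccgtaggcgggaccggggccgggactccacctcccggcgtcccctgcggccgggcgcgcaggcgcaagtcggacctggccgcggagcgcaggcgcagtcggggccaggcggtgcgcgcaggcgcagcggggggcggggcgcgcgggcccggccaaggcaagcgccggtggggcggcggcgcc
UBE2J1, chr6:89352723-89352972, minus strand: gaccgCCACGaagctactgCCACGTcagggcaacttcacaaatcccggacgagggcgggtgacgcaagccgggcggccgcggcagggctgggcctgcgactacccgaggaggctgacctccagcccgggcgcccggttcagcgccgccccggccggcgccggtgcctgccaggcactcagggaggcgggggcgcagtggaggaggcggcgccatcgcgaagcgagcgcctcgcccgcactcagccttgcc
The UBE2R2 window held CCACG on the minus strand, starting 164 bases before the start, and the CDC34 window held neither motif. The UBE2J1 window held CCACG at 245 and at 231 bases before the start, the latter overlapping ACGTG on the opposite strand. Over the full windows of 300 bases, which run 50 bases past the start, 45 of the 54 members had an entry. ACGTG was in a window of 14 of these 45 genes (31.1%) and of 24.9% of all genes with a window. CCACG was in a window of 30 of the 45 (66.7%) and of 42.1% of all genes. The 45 members had 81 windows, and per window the shares were 19.8% beside 21.4% of all windows for ACGTG and 48.1% beside 38.1% for CCACG. The longer element TGACGTGG, searched after the UBE2J1 window had been seen, was in a window of UBE2J1 and CUL5 and in 0.927% of all genes with a window. A match describes letters in a window and not a bound site.

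The endoplasmic reticulum E2s did not move as one. UBE2J1 (NM_016021), which is anchored in the membrane of the endoplasmic reticulum, read 0.13, 0.21 and 0.17 in shCtrl and -0.41, -0.39 and -0.35 in shXBP-1s. Its groups were far apart, with a difference of -0.55 (SE 0.05, limma adjusted p 5.05e-05). The brightest probe of UBE2J2 (NM_194458), the other membrane-anchored enzyme, read 0.77, 0.98 and 1.07 in shCtrl and 1.22, 1.26 and 1.25 in shXBP-1s. It was higher by 0.30 (limma adjusted p 0.0141), with shCtrl replicate 1 the lowest array, while the dim second UBE2J2 probe did not pass the test (-0.04, 95% interval -0.38 to 0.29). UBE2J1 minus UBE2J2 within an array differed by -0.86 between the groups, which did not overlap. UBE2G2, the soluble E2 that works with endoplasmic reticulum ligases, was lower by -0.19 (limma adjusted p 0.00582), which did not pass with quantile normalization (-0.09, adjusted p 0.0996) or after normexp (-0.09, adjusted p 0.451), and its relative UBE2G1 was at 0.05 (95% interval -0.05 to 0.14).

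The E2s of lysine 63-linked chains, which signal rather than mark for degradation, were lower in all 3 members, where 27.5% of all genes were. UBE2N (NM_003348), the catalytic enzyme, which had 10 spots on each array, read -0.43, -0.60 and -0.50 in shCtrl and -1.33, -1.42 and -1.53 in shXBP-1s. The groups were separated by more than the spread within either, and the fall was 1.89-fold (log2 -0.92, SE 0.07, limma adjusted p 3.26e-05). UBE2V2 (NM_003350), an inactive partner needed for chain linkage, read 0.12, 0.22 and 0.22 in shCtrl and -0.49, -0.53 and -0.49 in shXBP-1s. Its shXBP-1s arrays lay within a narrow band below every shCtrl array, with a difference of -0.69 (limma adjusted p 2.06e-05). UBE2V1, the other partner, had smaller differences of -0.28 and -0.15 at its 2 probes (limma adjusted p 0.00903 and 0.0481). With slide as a block neither UBE2V1 probe passed the test (adjusted p 0.123 and 0.208), and the dimmer probe was at 0.12 after normexp background correction.

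**Figure D2:**
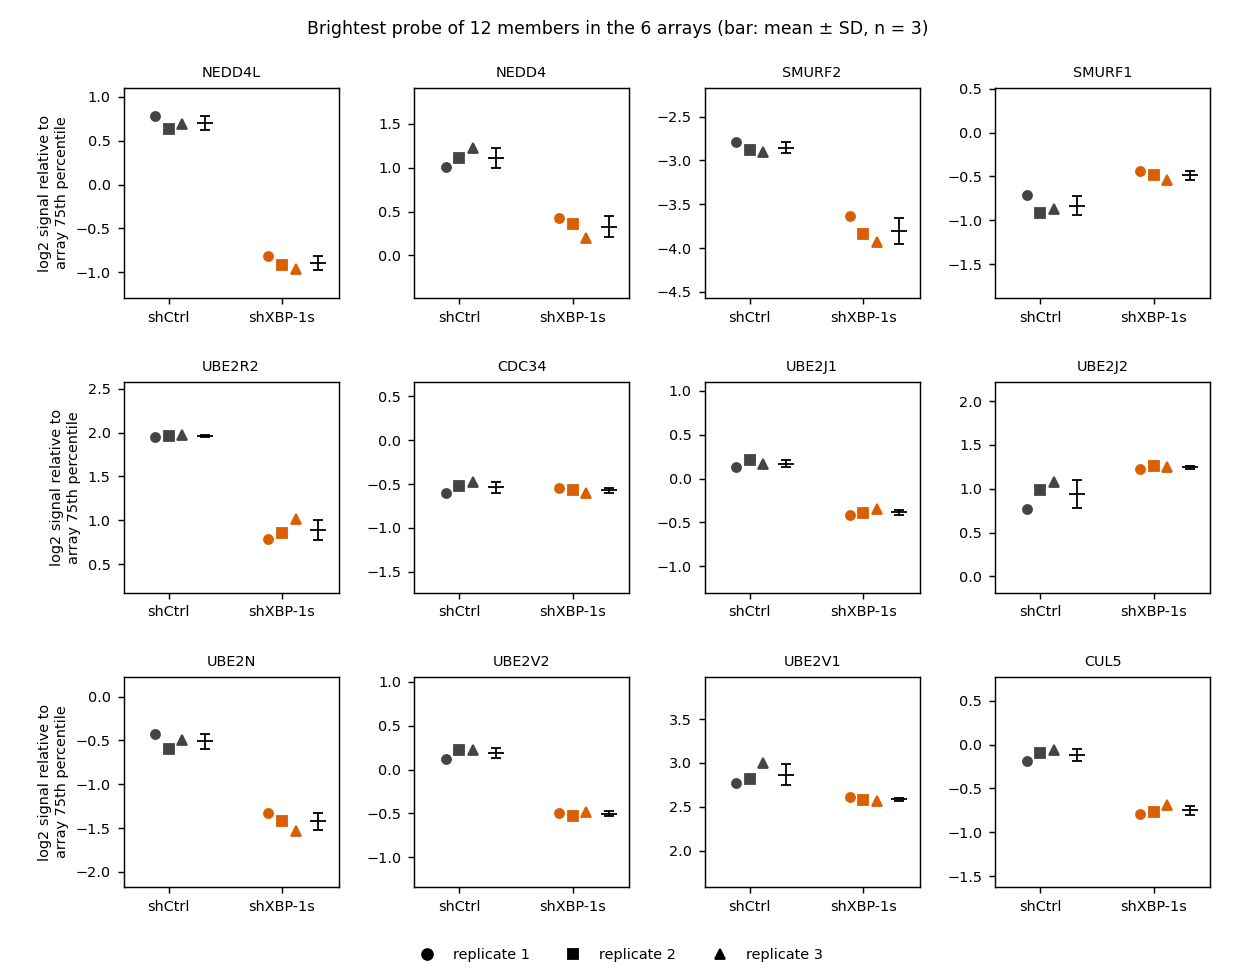
Log2 signal relative to the array's 75th percentile (vertical axis, every panel spanning the same range) in the 3 shCtrl and 3 shXBP-1s arrays for the brightest probe of 12 members, with symbols for the replicate number and bars for the mean ± SD. NEDD4L, NEDD4, SMURF2, UBE2R2, UBE2J1, UBE2N, UBE2V2, UBE2V1 and CUL5 lie lower in every shXBP-1s array, SMURF1 and UBE2J2 lie higher, and CDC34 overlaps.

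The UBE2D family, broadly used E2s that start chains with many RING ligases, was mixed. UBE2D1 (NM_003338) read 1.16, 1.06 and 1.06 in shCtrl and 1.57, 1.60 and 1.72 in shXBP-1s and was higher by 0.54 (SE 0.06, limma adjusted p 0.000163). All its shXBP-1s arrays were above all its shCtrl arrays. UBE2D2 was lower by -0.27 (limma adjusted p 0.0215), which did not pass the test with slide as a block (adjusted p 0.187). UBE2D3 was at 0.00 at its brightest probe (95% interval -0.19 to 0.19) and higher by 0.57 at the dimmer one. UBE2D4 was at -0.17 at its brightest probe, which did not pass the test, and higher by 0.33 at the dimmer one. None of the 3 UBE2E genes passed the test. UBE2E1 had the widest spread of them, from -3.65 to -2.65 over the shCtrl arrays and from -2.92 to -2.36 over the shXBP-1s arrays. Its difference was 0.62 (limma adjusted p 0.0944), and 1.00 with slide as a block. UBE2E1 passed with replicate number as a block (limma adjusted p 0.0468) and without shCtrl replicate 2 (0.93, limma adjusted p 0.00407). It did not pass in the other 5 fits that left out 1 array.

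UBE2K (NM_005339), an E2 that extends lysine 48-linked chains on its own, was higher in shXBP-1s. It read 3.60, 3.61 and 3.63 in shCtrl and 4.09, 4.08 and 4.19 in shXBP-1s, a difference of 0.51 (SE 0.05, limma adjusted p 0.000109). Both groups were narrow and did not overlap. UBE2Q1 and UBE2Q2, E2s with a long N-terminal extension, went opposite ways, at -0.52 (limma adjusted p 9.49e-05) and 0.37 (limma adjusted p 0.00571). UBE2T, the E2 of the Fanconi anaemia pathway, and UBE2S, which extends lysine 11-linked chains for the anaphase-promoting complex, were lower by -0.40 (limma adjusted p 0.000706) and -0.37 (limma adjusted p 0.0258). UBE2S did not pass the test with slide as a block (adjusted p 0.263). The NEDD8 E2s UBE2M and UBE2F, the interferon-induced ISG15 E2 UBE2L6, UBE2L3, UBE2O and UBE2Z did not pass the test, with brightest probes between -0.20 for UBE2F and 0.06 for UBE2O.

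UBE2A and UBE2B, the human counterparts of yeast Rad6, act in DNA damage tolerance and histone H2B ubiquitination. The brightest UBE2A probe was lower by -0.37 and the other was higher by 0.27, and UBE2A is taken up with the other genes whose probes were opposed. UBE2B was at -0.19 with no overlap between the groups (limma adjusted p 0.0933), and passed the test with slide as a block (-0.36, adjusted p 0.00642).

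Of the cullins, CUL5, which pairs with RNF7 and serves the SOCS-box receptors, was the one whose brightest probe fell, and CUL4A and CUL4B rose at theirs. CUL5 (NM_003478) read -0.19, -0.10 and -0.06 in shCtrl and -0.79, -0.77 and -0.69 in shXBP-1s. Every shXBP-1s array was below every shCtrl array, with a difference of -0.63 (1.55-fold, SE 0.05, limma adjusted p 6.07e-05). CUL4A, a scaffold of DDB1-based ligases, was higher at both probes, by 0.28 and 0.41 (limma adjusted p 0.0431 and 0.00198). Without the slide difference the first of these was 0.12 and did not pass the test (adjusted p 0.454). CUL1, the scaffold of SCF ligases, CUL2, CUL7 and CUL9 did not pass the test, at 0.12, -0.03, 0.18 and -0.01.

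Around the cullins, 1 of the 2 RING subunits was lower at its brightest probe. RBX1, the RING subunit of most cullins, was lower by -0.30 (limma adjusted p 0.0123), which did not pass the test with slide as a block (adjusted p 0.0591). RNF7, the RING subunit of CUL5, was at 0.12 and 0.08 at the probes of its coding transcript, which did not pass the test. The groups did not overlap at the first of these, which passed under some alternatives, among them quantile normalization (limma adjusted p 0.0141). It passed in none of the 6 fits that left out 1 array. RNF7 was higher by 0.34 at the dim probe of the transcript NR_037702 (limma adjusted p 0.00586). That dim probe was at -0.26 after normexp background correction, where the median of all tested probes was -0.41. NEDD8, the cullin modifier, was at -0.12 (95% interval -0.31 to 0.07). SKP1, the adaptor of SCF ligases, was at 0.01 and 0.05 at its 2 probes, and neither passed the test.

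The F-box receptors, which choose the targets of SCF ligases, were lower in all 3 members, where 27.5% of all genes were. FBXW7 (NM_033632), the receptor for phosphorylated MYC, cyclin E and NOTCH1, read 1.16, 1.15 and 1.13 in shCtrl and 0.71, 0.73 and 0.75 in shXBP-1s. Its replicates were close together and the groups wide apart, with a difference of -0.42 (SE 0.04, limma adjusted p 0.000114). BTRC, the receptor for phosphorylated beta-catenin and I kappa B, was lower by -0.38 (limma adjusted p 0.00468), and SKP2, the receptor for the cell cycle inhibitor p27, by -0.26 (limma adjusted p 0.0336). BTRC did not pass after normexp (adjusted p 0.146). SKP2 did not pass after normexp (adjusted p 0.255), with limma without trend (adjusted p 0.0509), or without shCtrl replicate 1 or 3 or shXBP-1s replicate 2 or 3 (adjusted p 0.0714 to 0.113). VHL, the CUL2 receptor for hydroxylated HIF-alpha, was at -0.11 (95% interval -0.28 to 0.05) and did not pass the test.

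NEDD4L had the largest difference of all members. This ligase, also called NEDD4-2, marks the epithelial sodium channel and other membrane proteins for internalisation. Its brightest probe (NM_015277) read 0.79, 0.63 and 0.69 in shCtrl and -0.81, -0.92 and -0.96 in shXBP-1s. No shXBP-1s array came near a shCtrl array, and the fall was 3.04-fold (log2 -1.60, SE 0.06, limma adjusted p 2.1e-06). A dimmer probe (NM_001144967) read -2.23, -2.53 and -2.36 in shCtrl and -3.69, -3.93 and -4.41 in shXBP-1s, with a wider spread in shXBP-1s and a difference of -1.64 (SE 0.18, limma adjusted p 0.000182). The remaining NEDD4L probe carries the accession of that dimmer probe and went the other way. It read -2.50, -2.67 and -2.63 in shCtrl and -1.996, -2.15 and -2.35 in shXBP-1s, higher by 0.44 (SE 0.10, limma adjusted p 0.00864). With slide as a block that rise did not pass the test (0.33, adjusted p 0.100), and after normexp background correction it was -0.02.

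RefSeq gives NEDD4L 5 starts with a window, of which 2 held ACGTG, 1 held CCACG alone and 2 held neither, and the array values do not tell which was used. The window of the most upstream start is printed for the gene with the largest change, with ACGTG or its complement in capitals.
NEDD4L, chr18:58046976-58047225, plus strand: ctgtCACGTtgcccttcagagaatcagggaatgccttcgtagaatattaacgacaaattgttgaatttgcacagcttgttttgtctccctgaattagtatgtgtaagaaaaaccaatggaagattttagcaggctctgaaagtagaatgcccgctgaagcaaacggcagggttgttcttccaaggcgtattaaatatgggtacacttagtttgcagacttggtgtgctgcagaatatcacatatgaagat
It held ACGTG on the minus strand, starting 246 bases before the start, and no CCACG.

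The closest relative of NEDD4L moved in the same direction. NEDD4 (NM_198400), the founding member of the family, read 1.00, 1.11 and 1.22 in shCtrl and 0.43, 0.35 and 0.20 in shXBP-1s, a 1.72-fold fall (log2 -0.78, SE 0.08, limma adjusted p 0.000118). The groups were apart, and within an array NEDD4L minus NEDD4 differed by -0.82 between them, again with no overlap. ITCH (NM_031483), a ligase that limits T cell activation and acts on JUNB, read 0.61, 0.71 and 0.68 in shCtrl and 0.13, 0.12 and 0.09 in shXBP-1s. All shXBP-1s arrays of ITCH lay below the shCtrl arrays, with a difference of -0.55 (SE 0.05, limma adjusted p 4.96e-05).

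SMURF1 and SMURF2, ligases that act on SMADs and receptors of TGF-beta and BMP signalling, went opposite ways. SMURF2 (NM_022739) read -2.79, -2.88 and -2.90 in shCtrl and -3.64, -3.84 and -3.93 in shXBP-1s. It fell 1.93-fold (log2 -0.95, SE 0.09, limma adjusted p 0.000112), just short of 2-fold, and reached it with slide as a block (-1.02, adjusted p 0.00102). After normexp it did not pass the test (-1.04, adjusted p 0.0976), and normexp with quantile normalization put it at -0.52. SMURF1 (NM_020429) read -0.72, -0.91 and -0.87 in shCtrl and -0.44, -0.49 and -0.54 in shXBP-1s, higher by 0.34 (SE 0.06, limma adjusted p 0.00324), which did not pass after normexp (adjusted p 0.186). Neither gene had overlapping groups, and the SMURF2 minus SMURF1 difference within an array was lower in shXBP-1s by -1.29. WWP1 and WWP2, the remaining pair of the family, were at 0.05 (95% interval -0.10 to 0.20) and -0.15 (95% interval -0.36 to 0.06) and did not pass the test.

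In all, 13 pairs of related or partner genes were compared by their within-array difference, and 10 did not overlap between the groups. The share among other gene pairs was not computed, and 52.4% of single tested probes did not overlap. The exact permutation p was 0.1 for each of the 10, and 0.13 after Benjamini-Hochberg adjustment over the 13 pairs, so no pair could pass at this number of arrays. RBX1 minus RNF7 differed by -0.42 and UBE2N minus UBE2V1 by -0.64. The pairs that overlapped were UBE2A with UBE2B, CUL4B with CUL4A, and UBE2F with UBE2M.

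Several probes were available for 14 members, and in 4 of them probes passed the test in opposite directions. Among all 4053 genes with at least 2 tested probes this was so for 297 (7.33%). Besides NEDD4L these were UBE2H, an E2 of the GID ligase that is abundant in erythroid cells, CUL4B, the X-linked relative of CUL4A, and UBE2A. The brightest UBE2H probe read 4.20, 4.14 and 4.16 in shCtrl and 3.79, 3.85 and 3.91 in shXBP-1s (-0.32, limma adjusted p 0.00141). The other UBE2H probe read 1.47, 1.57 and 1.34 and then 2.20, 2.27 and 2.25, the largest rise among member probes (0.78, limma adjusted p 4.25e-05). Both UBE2H probes carry the accession NM_003344, and neither had overlapping groups.

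The brightest CUL4B probe (NM_003588) read 0.38, 0.44 and 0.42 in shCtrl and 0.83, 0.83 and 0.88 in shXBP-1s, higher by 0.44 (limma adjusted p 0.00013). The other CUL4B probe read 0.55, 0.50 and 0.53 and then 0.28, 0.22 and 0.11, lower by -0.32 (limma adjusted p 0.00218). For UBE2A the brightest probe read 2.08, 2.14 and 2.16 in shCtrl and 1.70, 1.74 and 1.84 in shXBP-1s, and the second 1.45, 1.66 and 1.65 and then 1.70, 1.86 and 2.02. All shXBP-1s arrays lay below the shCtrl arrays at the first (limma adjusted p 0.000801) and above them at the second, where the gap was narrow (limma adjusted p 0.0438). Both probes passed with slide as a block, but the rise of the second did not pass under 5 other alternatives, among them limma without trend (adjusted p 0.0852), or in 5 of the 6 fits that left out 1 array, the exception being the fit without shXBP-1s replicate 1. Across the alternatives 2 to 5 members had opposed probes, CUL4B in each of them, and the brightest UBE2H probe did not pass after normexp (adjusted p 0.451). For UBE2H, CUL4B and UBE2A the arrays thus give no single direction of the gene. Probe sequences were not used here, so which transcripts each probe reads was not tested.

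**Figure D3:**
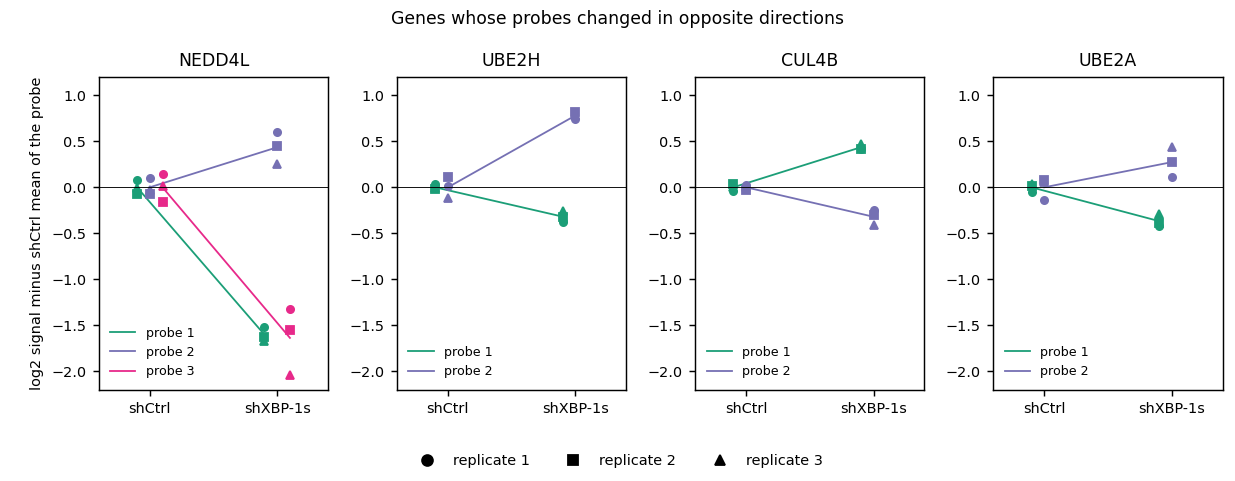
Log2 signal of each array minus the shCtrl mean of that probe for the 4 members whose probes passed the test in opposite directions, numbered from brightest to dimmest, with symbols for the replicate number and lines joining the group means. In each panel 1 probe rises from shCtrl to shXBP-1s and the other probe or probes fall, by up to -1.64 for NEDD4L.

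Other genes of the same machinery, from a list of 84 of which 79 had a tested probe, were lower in 28 cases and higher in 15, with 36 not passing the test and a median of -0.09. Over the 16821 genes represented in the same way, by the brightest probe, 27.5% were lower and 18.9% higher, with a median of -0.04. By its brightest probe HERC5, the interferon-induced ligase that attaches ISG15, was the one called at 2-fold. HERC5 (NM_016323) read 0.42, 0.48 and 0.45 in shCtrl and -0.50, -0.57 and -0.63 in shXBP-1s. Its arrays were tightly grouped and the fall was 2.02-fold (log2 -1.01, SE 0.05, limma adjusted p 4.77e-06). It was below 2-fold, and so not called, with slide as a block (-0.98), quantile normalization (-0.97), the deposited log2 values (-0.97) and normexp (-0.89). Dimmer probes of CUL3 and NDFIP1 were called too, beside brightest probes that were not. CUL3 (NM_003590), the scaffold of BTB-receptor ligases, read -4.84, -4.94 and -5.00 in shCtrl and -6.54, -6.66 and -7.87 in shXBP-1s at this probe, and 1 of the shXBP-1s arrays did not have it above background. Its difference of -2.10 (limma adjusted p 0.00149) did not pass the test after normexp (-1.27, adjusted p 0.429), and the brightest CUL3 probe was at -0.15 and did not pass. NDFIP1 (NM_030571), an adaptor that recruits NEDD4-family ligases, read -1.36, -1.28 and -1.28 in shCtrl and -0.13, -0.14 and -0.13 in shXBP-1s at its dimmer probe (1.18, limma adjusted p 2.52e-06), while its brightest probe was lower by -0.18.

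By group, with each gene again represented by its brightest probe, 3 of 7 other E1 genes were lower and none higher. Among the lower ones was UBA7, the ISG15 E1, at -0.74. Of 22 other receptors of cullin-RING ligases 10 were lower and 3 higher, including FBXO2, a receptor for N-glycosylated proteins, at -0.90, FBXW11, the relative of BTRC, at -0.56, and SOCS2 at 0.79. Cullin assembly factors and COP9 signalosome subunits were split, with 5 of 21 lower and 5 higher. Of 16 other HECT ligases 4 were lower and 7 higher, with HERC3 at 0.88. Of 6 adaptors and arrestin-domain partners of the NEDD4 family 4 were lower by the brightest probe, led by ARRDC3 at -0.64, and none was higher. The dimmer NDFIP1 probe given above was called higher, against its brightest probe. Of the ubiquitin genes themselves UBB was lower by -0.23, and the other 3 did not pass the test.

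**Figure D4:**
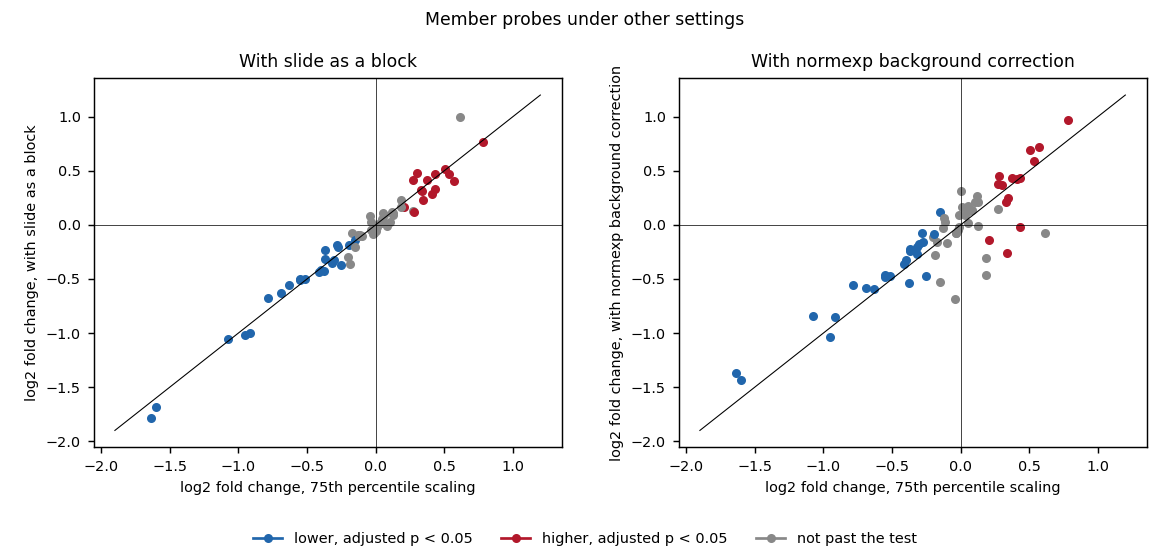
Log2 difference (shXBP-1s minus shCtrl) of the 70 member probes with 75th percentile scaling (horizontal) against the value with slide as a block (left) and after normexp background correction (right), coloured by the test under the former, with a line of equality. NEDD4L and UBE2R2 lie lowest in both panels together with SMURF2 and UBE2N, while probes near 0 scatter across the axes after normexp.

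With slide as a block 32 of the 70 member probes passed the test. The share of all tested probes that passed was 31.47% in this fit, beside 41.7% without the block. Of the 32 member probes, 31 were among the 39 above with the same sign. The probes that no longer passed were 1 each of UBE2D2, UBE2S, UBE2W, CUL4A, RBX1 and NEDD4L and both of UBE2V1, and UBE2B passed in addition. The 3 called probes of NEDD4L and UBE2R2 were called in this fit too, at -1.69, -1.78 and -1.06.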

How the data were processed

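Gene expression of CAL-27 cells was measured on 6 arrays in 1 colour (Cy3), 3 per group, with groups and replicate numbers from the sample labels. Spot intensity was deposited by the authors as scanner output from Agilent Feature Extraction 11.0.1.1, corrected for background and spatial trend but not normalized between arrays. A processed log2 table, for which the labels name RMA, was deposited too. Its array medians are equal (6.28), and it served as an alternative. The labels describe a NimbleGen protocol for the labelling, while the paper and the file headers name an Agilent array.

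The log2 intensity minus the 75th percentile of its array was analysed. Spots with outlier flags (230 to 377 per array) and control spots were left out, spots of a probe were averaged, and a probe was above background on an array when over 50% of its spots were. Probes above background on all 3 arrays of a group (27624 of 34127) were tested with limma 3.58.1 in R 4.3.3 (lmFit, eBayes with trend, Benjamini-Hochberg, two-sided). Between 82.1% and 84.8% of spots were above background and none was saturated. The number of arrays limits the precision. The fit was tested on simulated data in which a small part of the probes had known changes, all larger than 2-fold. That test does not bear on smaller changes. Symbols came from RefSeq accessions (GRCh38.p14; 25771 probes matched), and promoter windows from RefSeq on that build.

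The members, the list of 84 other genes, the gene pairs and the markers were chosen with earlier results of these data known. Named are members with a called probe or opposed probes, the largest other changes past the test, at least 1 gene per role, the partners of named pairs, and genes of the list called by their brightest probe, with 2 list genes called at a dimmer probe added after their values were seen. Replicate numbers were not taken to pair the samples. Alternatives were other background corrections, scalings, filters, tests and thresholds, the deposited log2 values, replicate number or slide as a block, and leaving out each array. Normexp (offset 50) used the median spot signal. Protein sequences were not used here.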

Additional observations from a re-analysis of the deposited data

How the results depend on the processing

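Of the 3 called member probes, normexp followed by quantile normalization kept 1, the brightest NEDD4L probe at -1.39, and put the other NEDD4L probe at -0.84 and UBE2R2 at -0.87. Normexp alone kept the 2 NEDD4L probes. Every other fit called all 3. Normexp lowered the number of member probes that passed the test as lower from 24 to 15. In either direction 26 member probes passed under it, beside 16.32% of all tested probes. Of the list of other genes 19 passed in either direction, where 43 had passed before. The median of the member probes moved to -0.0771 and that of all tested probes to -0.41, so changes under normexp are relative to that shift. The deposited log2 values gave a member median of 0.0112, and a threshold of 1.5-fold gave 9 called probes, 8 of them lower. Among probes that passed with 75th percentile scaling or in the alternative, normexp reversed the sign for UBE2V1 (0.121), UBE2W (-0.138), RNF7 (-0.263) and NEDD4L (-0.0228) at 1 probe each. Normexp with quantile normalization did so for UBE2V1 (0.0232) and for UBE2D3 (0.268), which had been at -0.0002. Probes that passed in neither fit could change sign too, such as CUL7 (0.184, and -0.462 after normexp). The cause was not tested. Over all member probes and alternatives, 1213 values stayed on their side of the threshold, not always with the same sign where they did not pass. Of the others 80 no longer passed, 31 newly passed and 6 were the reversals above. The losses were most frequent at single probes of CUL4A (11 fits), UBE2A and UBE2V1 (10 each), UBE2S (9), SKP2 (8), UBE2D2 (7) and UBE2W (6). Without each array in turn, 31 to 40 member probes passed (20 to 24 lower, 11 to 16 higher), beside 31.25% to 46.27% of all tested probes. In these fits 3 to 4 member probes were called, and the median of the member probes was -0.0362 to -0.0167. From 23 to 30 member genes and 35 to 46 listed genes passed, and XBP1 was at -2.40 to -2.38. With replicate number as a block 42 member probes passed, beside 40.24% of all tested probes. Of the 42, 38 were shared with the same sign, and 3 were called. Deviations of same-numbered arrays correlated at -0.02, 0.12 and -0.12, and replicate 2 alone matched its own number best. The numbers were therefore not taken to pair the samples. Such correlations do not show how the samples were handled.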
